A study of Homo sapiens with 12 samples.

Results

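A set of 10 genes of the germ line and of meiosis was followed in a human embryonal carcinoma line with and without the arginine methyltransferase gene PRMT6. They are TEX15, MEIOB, SYCP3 and STAG3 (meiosis), TDRD12, PIWIL2 and MAEL (the piRNA pathway), and NANOS3, PRDM1 and TFAP2C (primordial germ cells). They were taken by symbol from a table of raw counts, and all 10 of 10 were found among 56638 genes. Only 8 passed the filter on low counts (at least 10 counts or the equivalent in enough libraries of a group), as 19130 genes did in all, and SYCP3 and MAEL did not. The list was drawn up with earlier results of these data known, so counts over it are descriptions.

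The cells were NT2/D1, a pluripotent line from a testicular germ cell tumour that differentiates when given all-trans retinoic acid (ATRA). The 12 libraries form 4 groups of 3: cells carrying a CRISPR/Cas9-mediated deletion of PRMT6, untreated and with ATRA at 1 µM for 3 days, and CRISPR/Cas9 control cells under the same 2 conditions. The titles name 1 knockout line, KO-2, and the labels leave unsaid whether replicates were grown apart. The p-values below therefore rest on a spread that may be technical only. Cells were grown in DMEM with serum, and libraries were made from polyadenylated RNA with a stranded kit.

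In the germ line, primordial germ cells are set aside in the embryo under transcription factors that include PRDM1 and TFAP2C, and are kept alive by RNA-binding proteins such as NANOS3. The piRNA pathway uses PIWI proteins, loaded with small RNAs and helped by Tudor-domain proteins, to silence transposons while the genome is reprogrammed. In meiosis, cohesin and the synaptonemal complex hold homologous chromosomes while programmed DNA breaks are repaired by recombination. Outside the germ line many of these genes are silenced by promoter DNA methylation and by a Polycomb complex that contains PCGF6, E2F6, MGA and MAX. Germ cell tumours and embryonal carcinoma cells express part of this set.

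Total counts per library were 25469881 to 60394918. PRMT6, the deleted gene, stood at 0.0351, 0 and 0.0428 CPM (counts relative to TMM-scaled library size) in the untreated knockout, against 22.4, 1.94 and 8.94 CPM in the untreated control. With ATRA it stood at 0, 0.0587 and 0 CPM in the knockout, against 29.9, 15.9 and 26.8 CPM in the control. Knockout untreated 1 and 2, and knockout ATRA 1 and 3, were far more alike (chi-square per gene 9.01 and 1.91) than the other pairs within a group (78.1 to 416). All 10 embryonal carcinoma markers (POU5F1, NANOG, SOX2 and others) averaged at least 1 CPM in every group. Across 13932 genes, Spearman correlations between GC content and expression relative to the mean of all libraries were 0.184 to 0.559 in knockout libraries and -0.452 to 0.104 in control libraries.

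Sequences upstream of the start are shown for TDRD12 and NANOS3, a called member of each direction, from the RefSeq promoter table (GRCh38.p14). They are the 250 bases before each start, 5′ to 3′ on the gene's strand, and capitals mark CACGTG, the E-box read by MGA and MAX. TDRD12 lies on the plus strand at chr19:32719517-32719766, and the 3 starts listed for NANOS3 at chr19:13861786-13862035, chr19:13864953-13865202 and chr19:13876884-13877133, also on the plus strand.
TDRD12: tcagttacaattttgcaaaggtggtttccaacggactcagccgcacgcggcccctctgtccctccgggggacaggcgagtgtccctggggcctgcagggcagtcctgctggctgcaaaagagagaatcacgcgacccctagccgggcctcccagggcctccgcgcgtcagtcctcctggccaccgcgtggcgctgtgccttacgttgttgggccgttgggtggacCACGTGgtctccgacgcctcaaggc
NANOS3, start 1: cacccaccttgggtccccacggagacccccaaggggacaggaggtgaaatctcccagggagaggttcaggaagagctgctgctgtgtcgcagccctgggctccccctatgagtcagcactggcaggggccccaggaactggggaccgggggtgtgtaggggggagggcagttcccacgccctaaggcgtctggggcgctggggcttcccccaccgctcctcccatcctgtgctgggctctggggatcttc
NANOS3, start 2: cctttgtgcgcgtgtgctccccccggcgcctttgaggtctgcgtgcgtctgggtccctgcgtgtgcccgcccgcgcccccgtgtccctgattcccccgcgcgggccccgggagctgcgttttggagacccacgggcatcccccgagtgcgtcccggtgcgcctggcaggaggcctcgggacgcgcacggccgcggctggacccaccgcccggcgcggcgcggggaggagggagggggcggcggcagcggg
NANOS3, start 3: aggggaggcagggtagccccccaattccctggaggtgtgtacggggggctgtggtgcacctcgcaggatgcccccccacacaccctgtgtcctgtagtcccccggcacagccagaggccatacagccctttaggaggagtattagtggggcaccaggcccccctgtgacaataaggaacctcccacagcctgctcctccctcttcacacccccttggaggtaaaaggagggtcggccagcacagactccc
CACGTG, which reads the same on both strands, begins 25 bases before the TDRD12 start and occurs in none of the 3 NANOS3 windows. It also begins 211 bases before a MAEL start and 171 bases before a STAG3 start, and is absent from the SYCP3 and PRDM1 windows. STAG3 was not called and MAEL was not tested. Whether the motif goes with the calls was not tested, and the called members TEX15 and MEIOB had no window examined. CACGTG occurs in 6.3% of the 35116 windows of the same length in the table. GCGGGA or its reverse complement TCCCGC, the core of E2F sites, occurs in none of the 4 windows shown and in 23.5% of all. It does occur in windows of SYCP3 and STAG3. Windows of TEX15, MEIOB, PIWIL2 and TFAP2C were not examined. The TDRD12 window holds 20 CpG dinucleotides, and the NANOS3 windows hold 7, 36 and 4, beside a median of 11 in the table. These matches describe letters in the windows and show no binding.

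**Figure D1:**
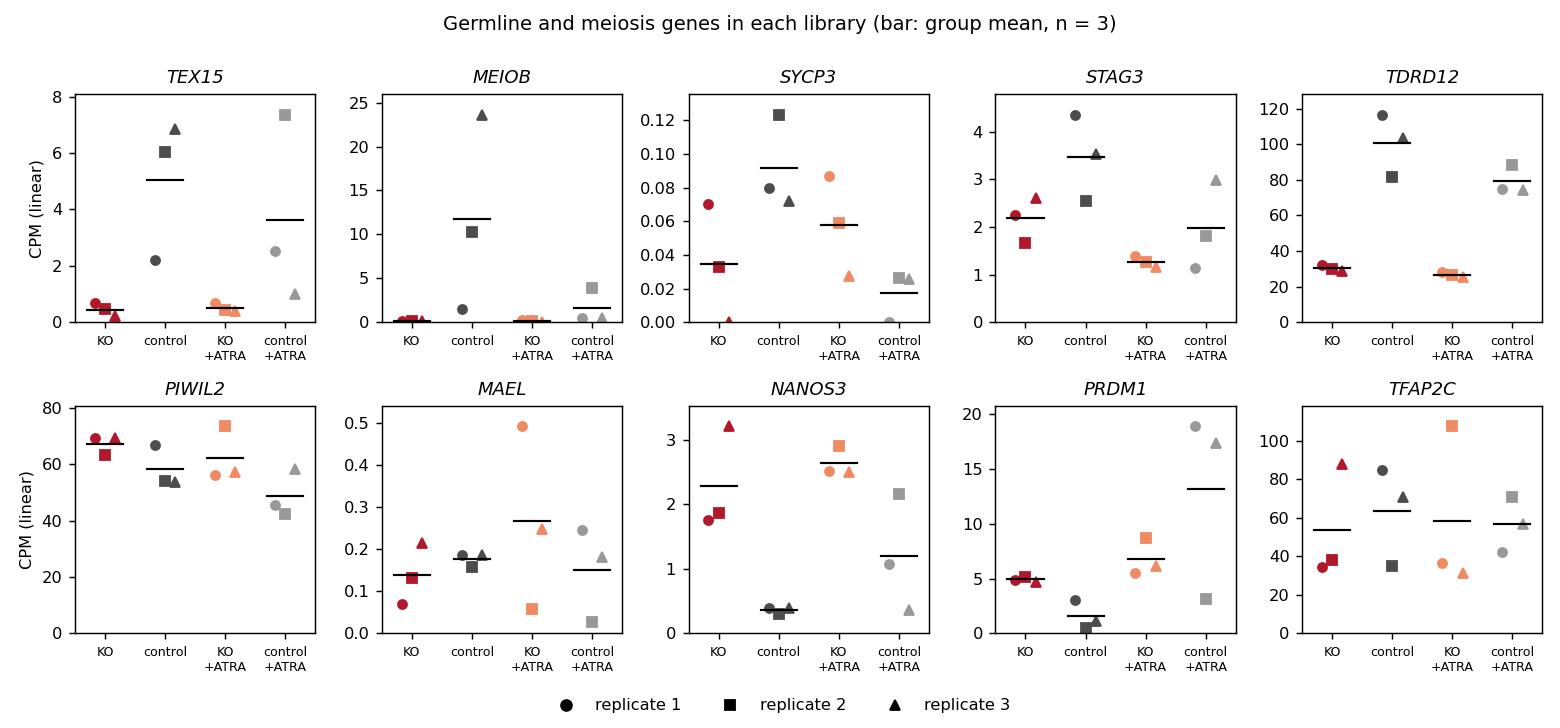
Level of each of the 10 genes in CPM (linear axis from 0) in each library of the 4 groups, with the group mean as a bar (n = 3). TDRD12 lies between 25.2 and 32.0 CPM in all knockout libraries and between 74.4 and 116 CPM in all control libraries, whereas SYCP3 and MAEL stay below 0.5 CPM in every library.

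On a length-scaled basis (RPKM, CPM per kilobase of the deposited gene length), TFAP2C, PIWIL2 and TDRD12 were the 3 highest members in both genotypes without ATRA. In the untreated knockout the order was TFAP2C (17.2 ± 9.56 RPKM, SD, n = 3), PIWIL2 (11.7 ± 0.576), TDRD12 (4.32 ± 0.229), NANOS3 (2.31 ± 0.820), PRDM1 (0.771 ± 0.0338), STAG3 (0.254 ± 0.0554), MAEL (0.0455 ± 0.0237), MEIOB (0.0445 ± 0.00513), TEX15 (0.0383 ± 0.0195) and SYCP3 (0.00897 ± 0.00919). Neighbours overlapped for TFAP2C and PIWIL2 and along the run from MAEL to SYCP3, so their order is not resolved. In the untreated control the order was TFAP2C (20.4 ± 8.30 RPKM, SD, n = 3), TDRD12 (14.4 ± 2.50), PIWIL2 (10.1 ± 1.31), MEIOB (4.31 ± 4.07), TEX15 (0.432 ± 0.213), STAG3 (0.405 ± 0.106), NANOS3 (0.367 ± 0.0561), PRDM1 (0.241 ± 0.208), MAEL (0.0584 ± 0.00544) and SYCP3 (0.0240 ± 0.00719). Neighbours overlapped there for TFAP2C and TDRD12 and along the run from MEIOB to PRDM1. MEIOB and TEX15 thus held positions 8 and 9 in the untreated knockout and positions 4 and 5 in the untreated control.

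Without ATRA, the meiosis genes TEX15 and MEIOB and the piRNA gene TDRD12 were lower in the knockout, and the germ cell survival gene NANOS3 was higher. These 4 of the 8 tested members were called by edgeR at an adjusted p under 0.05, 1 higher and 3 lower, where 34.9% of all genes tested were called (13.0% higher and 21.9% lower). For 5 of the 8 the 3 knockout libraries did not overlap the 3 control libraries, 2 higher and 3 lower, where this held for 47.9% of all genes tested (20.9% higher and 27.0% lower). STAG3, PIWIL2, PRDM1 and TFAP2C were not called. The median log2 fold change was -0.46 over the 8 and -0.11 over all genes tested.

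TEX15, needed for repair of meiotic double-strand breaks and, in mouse, for piRNA-directed transposon silencing, was at 0.668, 0.458 and 0.214 CPM in the untreated knockout, against 2.22, 6.06 and 6.85 CPM in the untreated control. Every knockout library was below every control library, and control 1 was the lowest of the controls. The fitted level was 11.1-fold lower in the knockout (log2 fold change -3.48 ± 0.73 SE, edgeR adjusted p = 0.00621). TEX15 transcripts have a GC content of 35.2%, lower than nearly all tested genes (percentile 0.446). With the GC trend of each library removed, the log2 fold change was -1.81 ± 0.45 SE (edgeR adjusted p = 0.0216).

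MEIOB, a single-strand DNA-binding protein of meiotic recombination, was almost absent from the knockout. It was at 0.105, 0.131 and 0.128 CPM in the untreated knockout, against 1.52, 10.2 and 23.6 CPM in the untreated control. The groups did not overlap, but the control libraries spanned 15.5-fold among themselves. The knockout held 10 counts in all and the control 2273, and MEIOB passed the filter on low counts only through control libraries. The fitted level was 94.6-fold lower (log2 fold change -6.56 ± 1.29 SE, edgeR adjusted p = 0.00510), and the log2 value was -5.56 without control untreated 3 and -5.49 with the GC trend removed. FAHD1 overlaps MEIOB on the opposite strand and the strand setting of the counting is not given in the sources used here, so the 2 genes may share counts. FAHD1 was at 22.8 ± 5.02 CPM in the untreated knockout and 14.2 ± 6.50 CPM in the untreated control (SD, n = 3 each), a difference that was not called (edgeR adjusted p = 0.167).

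SYCP3, the axial element protein of the synaptonemal complex and a standard marker of meiotic prophase, was at or below 7 counts in every library. In untreated cells it had 2, 1 and 0 counts in the knockout, against 3, 7 and 5 counts in the control, and with ATRA 3, 2 and 1 counts in the knockout, against 0, 1 and 1 counts in the control. The knockout-to-control ratio of summed counts on scaled library sizes was 0.397 in untreated cells, with a 95% counting interval of 0.0737 to 1.40. In ATRA-treated cells it was 3.13, with an interval of 0.560 to 31.7. A difference was not detectable at this depth, where 3 counts correspond to 0.0433 to 0.128 CPM.

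STAG3, the meiosis-specific cohesin subunit, was at 2.25, 1.67 and 2.61 CPM in the untreated knockout, against 4.35, 2.54 and 3.53 CPM in the untreated control. Knockout 3 and control 2 overlapped, and the gene was not called (log2 fold change -0.67 ± 0.38 SE, edgeR adjusted p = 0.180). STAG3 has near-identical partial copies (STAG3L1 to STAG3L4 in the table) with which it may share reads, so its values are uncertain.

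TDRD12, a Tudor-domain helicase of the piRNA pathway, showed the tightest difference of the members. It was at 32.0, 30.0 and 28.8 CPM in the untreated knockout, against 116, 81.7 and 103.7 CPM in the untreated control. No libraries overlapped, and the spread within each group was below 1.5-fold. The fitted level was 3.32-fold lower (log2 fold change -1.73 ± 0.19 SE, edgeR adjusted p = 0.00103). PIWIL2, the PIWI protein that binds piRNAs, did not differ detectably, at 69.2, 63.4 and 69.1 CPM in the untreated knockout against 67.0, 54.2 and 53.7 CPM in the untreated control (log2 fold change 0.21 ± 0.20 SE, edgeR adjusted p = 0.429). MAEL, a nuage protein of the same pathway, had 2, 4 and 5 counts in the untreated knockout, against 7, 9 and 13 counts in the untreated control. The MAEL ratio on scaled library sizes was 0.753 (95% counting interval 0.340 to 1.55).

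NANOS3, an RNA-binding repressor that keeps primordial germ cells from dying, was the member called higher. It was at 1.76, 1.87 and 3.21 CPM in the untreated knockout, against 0.400, 0.299 and 0.389 CPM in the untreated control. The lowest knockout library was above the highest control library by several times the range of the controls. The fitted level was 6.23-fold higher (log2 fold change 2.64 ± 0.54 SE, edgeR adjusted p = 0.00594), on 182 counts in the knockout and 59 in the control. NANOS3 transcripts have a GC content of 62.7% (percentile 91.4 among tested genes), and the log2 fold change was 2.29 with the GC trend removed.

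PRDM1 (BLIMP1), a repressor that directs cells to the germ line and in other tissues plasma cell and epidermal fates, was at 4.89, 5.14 and 4.71 CPM in the untreated knockout, against 3.02, 0.458 and 1.14 CPM in the untreated control. All knockout libraries were above all control libraries, and the controls spanned 6.59-fold. PRDM1 was not called (log2 fold change 1.69 ± 0.66 SE, edgeR adjusted p = 0.0644). It was called by DESeq2 (log2 fold change 1.75, adjusted p = 0.0198). It was also called by edgeR without the filter (adjusted p = 0.0201), with the GC trend removed (0.0459), without control untreated 1 (0.0110) and without control ATRA 2 (0.0216). ATG5 overlaps PRDM1 on the other strand and was lower in the knockout, at 7.35 ± 0.553 CPM against 29.1 ± 14.1 CPM in the untreated control (SD, n = 3 each, edgeR adjusted p = 0.00605).

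TFAP2C, the AP-2 gamma factor of germ cell specification that trophoblast and surface ectoderm also use, did not separate the genotypes. It varied between libraries in both genotypes, over 2.54-fold in the untreated knockout and 2.44-fold in the untreated control. With ATRA it spanned 3.41-fold in the knockout and 1.68-fold in the control. It was at 34.6, 38.2 and 87.8 CPM in the untreated knockout, against 84.9, 34.8 and 70.6 CPM in the untreated control (log2 fold change -0.24 ± 0.50 SE, edgeR adjusted p = 0.722). With ATRA it was at 36.5, 108 and 31.5 CPM in the knockout, against 42.3, 71.0 and 56.8 CPM in the control (log2 fold change 0.05 ± 0.50 SE, edgeR adjusted p = 0.963). Knockout untreated 3 and knockout ATRA 2 were thus the high ones, each more than 2-fold above the other libraries of its group, which were near-identical to each other.

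Knockout untreated 3 and knockout ATRA 2 also stood apart in other genes. COL3A1, a fibrillar collagen, was at 10569.6, 10915 and 1319 CPM in untreated knockout cells. With ATRA the knockout libraries had 10266, 1670.4 and 10144 CPM of it, against 1.88 to 613 CPM in the control libraries. The summed level of the 9 stromal markers was 2245 CPM in knockout untreated 3 and 2253 CPM in knockout ATRA 2, against 12326 to 13916 CPM in the other 4 knockout libraries and 264 to 1503 CPM in the control libraries. In the untreated knockout most of this sum was COL3A1 and COL1A1 (means 7601 and 1598 CPM). COL1A2 did not follow it, at 35.99, 37.99 and 47.35 CPM there, nor did THY1. THY1 was at 244 ± 7.96 CPM there and 237 ± 154 CPM in its control (SD, n = 3 each). With ATRA THY1 was at 107 ± 5.04 CPM in the knockout and 142 ± 31.7 CPM in the control. The rest were lowest in knockout untreated 3 and knockout ATRA 2 within their groups. None of the 9 was at 0 in any group, though FAP had 1 count over the untreated control. The 10 embryonal carcinoma markers summed to 8702 CPM in knockout untreated 3 and 5369 to 5533 CPM in its companions. With ATRA they summed to 3680 CPM in knockout ATRA 2 and 2502 to 2549 CPM in its companions. L1TD1 did not follow this sum, at 111, 92.9 and 98.5 CPM in the untreated knockout and 36.8, 28.0 and 34.1 CPM with ATRA. Nor did PODXL with ATRA, at 977, 893 and 955 CPM in the knockout. The other embryonal carcinoma markers, and PODXL untreated, were highest in knockout untreated 3 and knockout ATRA 2 within their groups. The 10 surface ectoderm, amnion and trophoblast markers summed to 8412 to 12718 CPM in knockout libraries and 1236 to 8199 CPM in control libraries. Most of this sum was the keratins KRT8 and KRT18, at means of 5483 and 2920 CPM in the untreated knockout. KRT18 was at 2769 to 4853 CPM in knockout libraries and 429 to 2685 CPM in control libraries. By group mean KRT7, TFAP2A and GCM1 were lower in the untreated knockout than in its control, and the other listed markers were higher. With ATRA the lower ones were KRT7, TFAP2A and HAND1. None was at 0 over a group, though GCM1 had 1 count over the untreated knockout. The part of these marker differences in the TFAP2C and PRDM1 values was not tested, and in bulk RNA fewer cells of a type cannot be told apart from less RNA per cell.

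**Figure D2:**
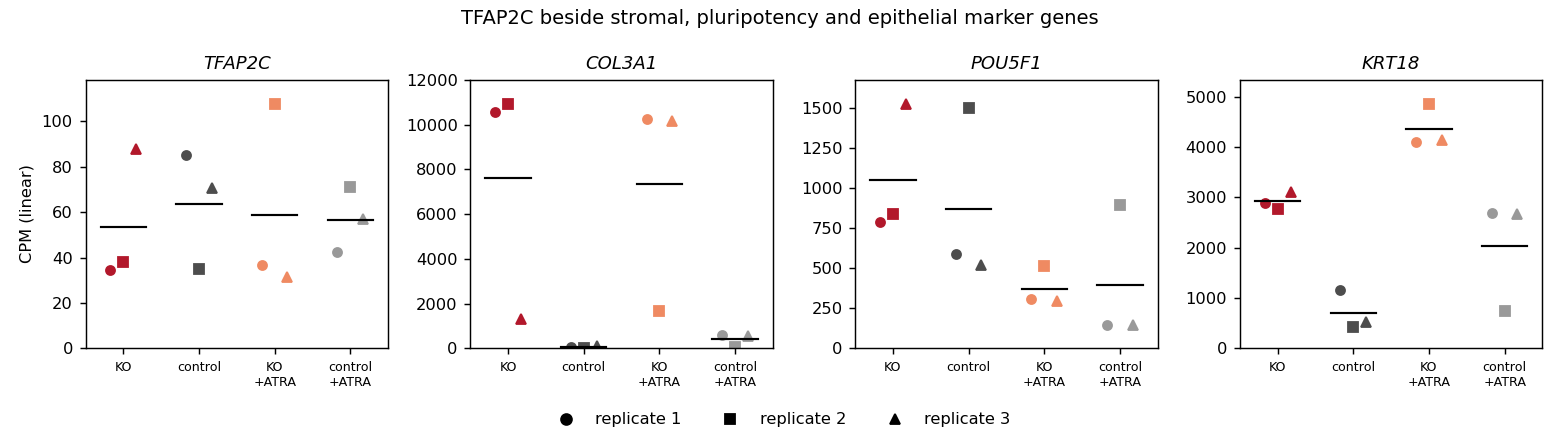
TFAP2C, the stromal collagen gene COL3A1, the pluripotency gene POU5F1 and the epithelial keratin gene KRT18 in CPM (linear axes from 0) per library, with group means as bars (n = 3). Knockout untreated 3 and knockout ATRA 2 are highest in TFAP2C (87.8 and 108 CPM) and lowest in COL3A1 (1319 and 1670.4 CPM) within their groups.

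With ATRA, TDRD12 and TEX15 were again lower in the knockout, and no member was called higher. These 2 of 8 tested members stood beside 7.51% of all genes tested that were called (3.27% higher and 4.24% lower). Libraries of the 2 genotypes did not overlap for 4 of the 8, 3 lower and 1 higher, where this held for 34.6% of all genes tested (16.7% higher and 17.9% lower). TDRD12 was at 27.9, 26.4 and 25.2 CPM in the ATRA-treated knockout, against 74.9, 88.6 and 74.4 CPM in the ATRA-treated control. This was a 2.99-fold lower fitted level (log2 fold change -1.58 ± 0.19 SE, edgeR adjusted p = 0.00119), and TDRD12 was called in this comparison under every other setting tried.

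TEX15 was at 0.696, 0.440 and 0.386 CPM in the ATRA-treated knockout, against 2.52, 7.36 and 1.01 CPM in the ATRA-treated control. The groups did not overlap, although control ATRA 3 came close to the knockout. The log2 fold change was -2.83 ± 0.70 SE (edgeR adjusted p = 0.0331). The call was lost with near-identical libraries summed (adjusted p = 0.165) and in a fit of the 2 groups alone (0.0686). It was also lost without control ATRA 2, without knockout untreated 2 or without any 1 of the 3 knockout ATRA libraries (adjusted p up to 0.141). With the GC trend removed the log2 value was -1.83.

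MEIOB had 8, 3 and 0 counts in the ATRA-treated knockout, against 14, 151 and 19 counts in the ATRA-treated control, or 0.232, 0.0880 and 0 CPM against 0.431, 3.92 and 0.493 CPM. Every knockout library was below every control library, and the gene was not called (log2 fold change -3.90 ± 1.21 SE, edgeR adjusted p = 0.0656). DESeq2 called it (adjusted p = 0.0219), as did edgeR without the filter (0.00257), without control untreated 1 (0.0367) and without control ATRA 3 (0.0460). NANOS3 was at 2.52, 2.91 and 2.51 CPM in the ATRA-treated knockout, against 1.08, 2.16 and 0.363 CPM in the ATRA-treated control. Its libraries did not overlap either, and it was not called (log2 fold change 1.14 ± 0.51 SE, edgeR adjusted p = 0.167). PRDM1 was at 5.54, 8.66 and 6.12 CPM in the ATRA-treated knockout, against 18.9, 3.17 and 17.4 CPM in the ATRA-treated control, so that the knockout lay between the control libraries (log2 fold change -0.96 ± 0.64 SE, edgeR adjusted p = 0.350). Neither STAG3 nor PIWIL2 was called by edgeR, with adjusted p = 0.299 and 0.262 for log2 changes of -0.64 ± 0.39 and 0.36 ± 0.20 (SE). MAEL had 17, 2 and 9 counts in the ATRA-treated knockout, against 8, 1 and 7 counts in the ATRA-treated control (ratio 1.83, 95% counting interval 0.955 to 3.62).

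**Figure D3:**
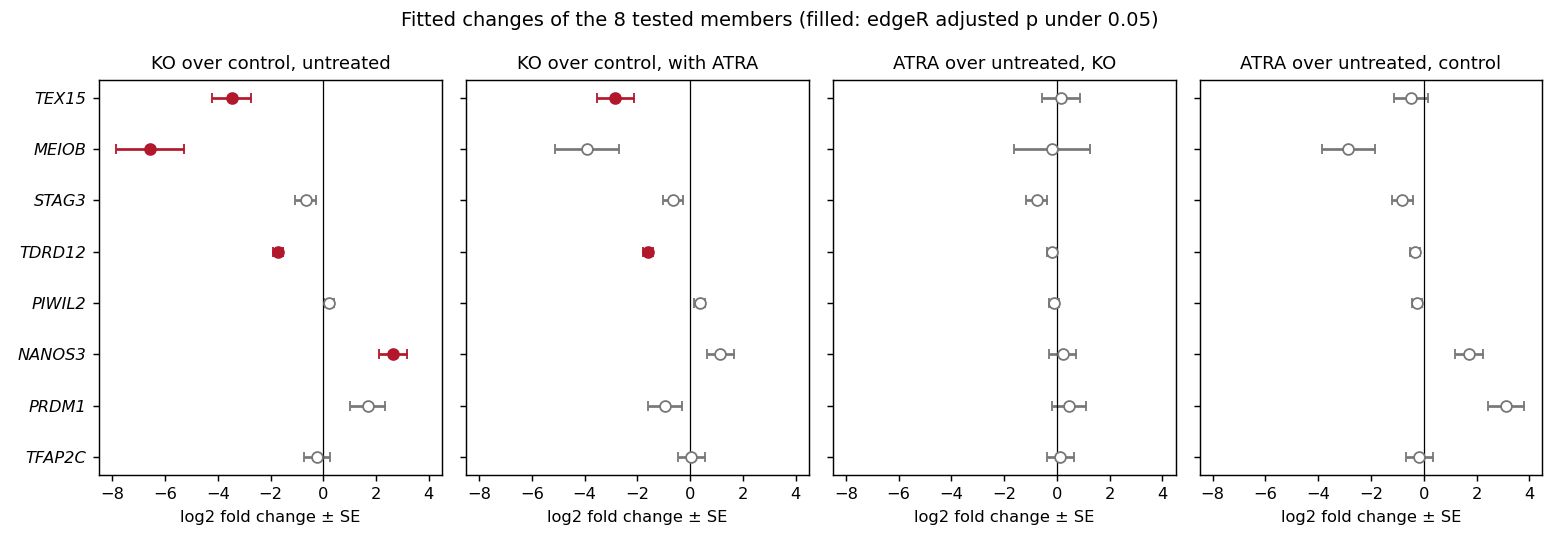
Fitted log2 fold changes with standard errors for the 8 tested members in 4 comparisons of 3 against 3 libraries, filled where the edgeR adjusted p is under 0.05. TDRD12 has the narrowest error among the called members (0.19 in both knockout comparisons) and MEIOB the widest (1.29 untreated).

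ATRA itself moved none of the 8 members past the threshold in either genotype. In control cells edgeR called 0 of 8, where 0.115% of all genes tested were called (0.0993% higher and 0.0157% lower). PRDM1 was the 1 member whose libraries did not overlap, higher with ATRA, where this held for 14.8% of all genes tested (7.39% higher and 7.44% lower). At an unadjusted p under 0.05 there were 3 of 8 (MEIOB, NANOS3 and PRDM1), where 20.7% of all genes tested passed. DESeq2 called 2 (NANOS3 and PRDM1), beside 8.47% of all genes tested. In knockout cells libraries did not overlap for PRDM1 (higher with ATRA) and for TDRD12 and STAG3 (lower), or 3 of 8, beside 31.9% of all genes tested (17.2% higher and 14.7% lower). There edgeR called 0 of 8, beside 0.0314% of all genes tested (0.0261% higher and 0.00523% lower). At an unadjusted p under 0.05 there were 0, beside 11.7% of all, and DESeq2 called 0, beside 2.93%.

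PRDM1 had the largest ATRA value in control cells, with 13.1 ± 8.67 CPM with ATRA and 1.54 ± 1.32 CPM untreated (SD, n = 3 each). The lowest library with ATRA (3.17 CPM) was just above the highest untreated one (3.02 CPM). The log2 fold change was 3.11 ± 0.69 SE (edgeR adjusted p = 0.0619), with edgeR adjusted p from 0.00384 (without control ATRA 2) to 0.269 as single libraries were left out. It was called without control ATRA 2 or without control untreated 1 (0.0139), by edgeR without the filter on low counts (adjusted p = 0.000308) and by DESeq2 (adjusted p = 0.000162). Control ATRA 2, the library lowest in PRDM1, had POU5F1 at 895 CPM, against 147 and 148 CPM in control ATRA 1 and 3. The other embryonal carcinoma markers were also highest there, except LIN28A and PODXL. PODXL was lowest there, at 1303 CPM against 1472 and 2450 CPM. The 10 markers summed to 5054 CPM in control ATRA 2, against 3711 and 5082 CPM in control ATRA 1 and 3. In the knockout PRDM1 was at 6.77 ± 1.66 CPM with ATRA and 4.91 ± 0.215 CPM untreated (log2 fold change 0.46 ± 0.64 SE, edgeR adjusted p = 0.868).

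MEIOB averaged 1.616 ± 1.9996 CPM with ATRA and 11.8 ± 11.1 CPM untreated in the control (log2 fold change -2.86 ± 1.01 SE, edgeR adjusted p = 0.144). It was called without control untreated 1 (log2 fold change -3.37, edgeR adjusted p = 0.0357), without control ATRA 2 (-4.66, 0.0208) and without the filter (-2.89, 0.0109). The same control ATRA 2 library was the highest of the 3 with ATRA for MEIOB, TEX15, NANOS3, TDRD12 and TFAP2C. That is 5 of the 8 tested members, where it was highest for 43.9% of all genes tested. NANOS3 averaged 1.199 ± 0.903 CPM with ATRA and 0.363 ± 0.0554 CPM untreated in the control (log2 fold change 1.72 ± 0.53 SE, edgeR adjusted p = 0.111). The other tested members had ATRA log2 fold changes from -0.81 (STAG3) to -0.16 (TFAP2C) in control cells. In the knockout they ran from -0.77 (STAG3) to 0.46 (PRDM1) over all 8.

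The test of whether ATRA acted differently in knockout and control cells called 0 of 8 members and 0 of all 19130 genes with edgeR. PRDM1 alone had an unadjusted p under 0.05 (1 of 8, beside 9.76% of all genes tested), with a difference of log2 fold changes of -2.65 ± 0.92 SE (edgeR adjusted p = 0.509). DESeq2 called 0 of the 8, beside 0.0627% of all genes tested. The comparisons share groups, so the values of a member in different comparisons are not independent.

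A wider list of 88 other germline genes gave the setting for these members. Of these, 59 passed the filter. In untreated cells 21 were called, 2 higher and 19 lower, a share near the 34.9% of all genes tested (13.0% higher and 21.9% lower). With RLE scaling 23 were called, 5 higher and 18 lower, and DESeq2 called 26, 5 higher and 21 lower. RLE scaling called 35.1% of all genes tested and DESeq2 40.9%, both directions together. The median log2 fold change was -0.36 over the 59 and -0.11 over all genes tested. With ATRA 3 of 59 were called, 1 higher and 2 lower, beside 7.51% of all (3.27% higher and 4.24% lower). With near-identical libraries summed, TDRD5, E2F6, PUM2 and SOX17 were the 4 called untreated, beside 5.42% of all, and 0 were called with ATRA, beside 0.359%. With the GC trend removed 10 were called untreated, beside 16.9% of all. Of these 10, 7 (HFM1, TDRD5, TDRKH, PUM2, SOX17, TFAP2B and PCGF6) were among the 21. Untreated, the count was 12 without knockout untreated 1, 11 without knockout untreated 2, 14 without knockout untreated 3 and 12 without control untreated 3. The share of all genes called in the same fits was 19.2%, 15.5%, 24.2% and 18.1%. With ATRA the count was 0 without knockout ATRA 1 or 3, 7 and 6 without control untreated 1 and 2, and 6 without control ATRA 3. Of all genes the same fits called 1.22%, 1.11%, 10.5%, 10.9% and 10.5%.

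Meiotic recombination genes had 6 of 14 tested called in untreated cells, 1 higher and 5 lower, where 13.0% of all genes tested were called higher and 21.9% lower. Whether any of the sublists differed from those shares was not tested. HFM1, a helicase of meiotic crossover formation, was at 0.246, 0.196 and 0.342 CPM in the untreated knockout, against 0.961, 2.27 and 3.76 CPM in the untreated control (edgeR adjusted p = 0.00649). C17orf104 (MEIOC), which keeps germ cells in meiotic prophase in mouse, was at 1.05, 0.589 and 0.728 CPM in the knockout, against 1.41, 14.4 and 10.4 CPM in the control (edgeR adjusted p = 0.0119). In both genes, as in MEIOB and TEX15, control 1 was the lowest control library. Of the 8 tested members it was lowest for these 2 and highest for the other 6, and it was lowest for 40.6% of all genes tested. RNF212, a crossover regulator, was called with ATRA, on 39 counts in the knockout and 4 in the control (edgeR adjusted p = 0.0145). It passed the filter on low counts only through knockout libraries, where it was higher. Its untreated log2 fold change was 0.66 ± 0.54 SE (edgeR adjusted p = 0.350), and the test of the difference between conditions gave an edgeR adjusted p of 0.509.

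Of the synaptonemal complex and axis genes 2 of 5 tested were lower and none higher in untreated cells, beside 21.9% of all genes lower. SYCP2, the partner of SYCP3 in the axial element, was at 0.105, 0.131 and 0.128 CPM in the knockout, against 0.187, 1.02 and 1.63 CPM in the control (edgeR adjusted p = 0.0182). SYCP2L, an oocyte relative of SYCP2, was 4.89-fold lower (edgeR adjusted p = 0.0194), with overlapping libraries. Both genes were below 2 CPM throughout. Among genes of cohesin and its protection, SGOL2 (shugoshin), which shields centromeric cohesin and is also used in mitosis, was 4.66-fold lower (edgeR adjusted p = 0.00849). REC8, the meiotic kleisin that pairs with STAG3, was at 2.35, 2.29 and 1.84 CPM in the knockout, against 1.98, 8.72 and 3.89 CPM in the control, and was not called (edgeR adjusted p = 0.0766).

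The piRNA genes had 4 of 9 tested lower and none higher in untreated cells, beside the same 21.9% of all genes lower. TDRD5, a Tudor-domain protein of the nuage, was at 0.597, 0.524 and 0.257 CPM in the knockout, against 2.38, 8.93 and 10.4 CPM in the control, a 15.5-fold lower fitted level (edgeR adjusted p = 0.00461). TDRKH, which tethers PIWI proteins to mitochondria, was 2.60-fold lower (edgeR adjusted p = 0.0106). MYBL1 (A-MYB), the activator of pachytene piRNA genes, was 3.48-fold lower (edgeR adjusted p = 0.00980). None of the 9 was called with ATRA, where edgeR gave TDRD5 an adjusted p of 0.0518 (log2 fold change -2.69 ± 0.77, SE).

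**Figure D4:**
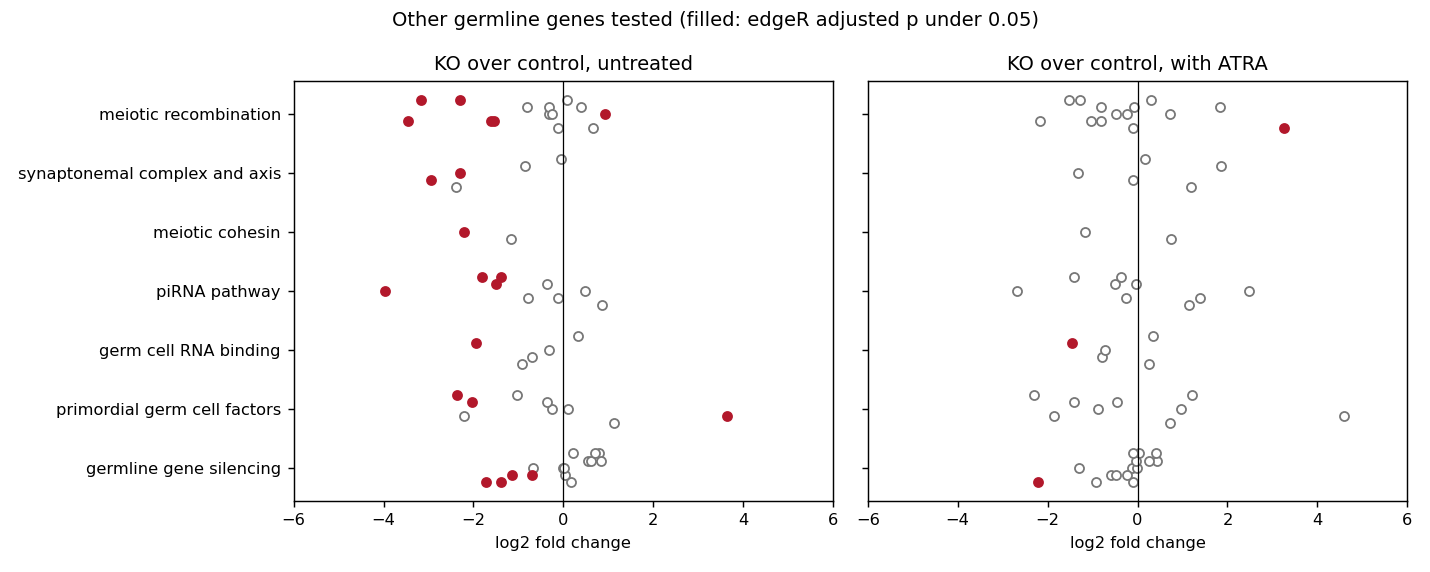
Fitted log2 fold changes of knockout over control for 59 other germline genes in 7 sublists, without and with ATRA, each point 1 gene and filled where the edgeR adjusted p is under 0.05. In untreated cells 19 filled points lie below 0 and 2 above (18 and 5 with RLE scaling). Of all genes tested, 21.9% were called lower and 13.0% higher there without RLE scaling. With ATRA 2 lie below and 1 above, beside 4.24% of all genes tested lower and 3.27% higher.

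Of 5 tested RNA-binding genes of germ cells, PUM2 was lower and the others were not called (21.9% of all genes were lower). PUM2, a Pumilio repressor that many somatic cells also express, was called with and without ATRA, 3.85-fold lower untreated and 2.73-fold lower with ATRA (edgeR adjusted p = 0.00308 and 0.0220). DDX4 and DAZL, which mark committed germ cells, had no count in the untreated knockout and 7 and 27 counts over the untreated control. Neither DDX4 nor DAZL passed the filter, and DDX4 did not reach 0.06 CPM in any library.

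Of 9 tested primordial germ cell factors 1 was higher and 2 lower in the untreated knockout, beside 13.0% of all genes higher and 21.9% lower. SOX17, the human germ cell specifier that acts with PRDM1 and TFAP2C and also drives endoderm, was at 0.457, 0.622 and 1.37 CPM in the untreated knockout, against 0.0801, 0.0352 and 0.0721 CPM in the untreated control (log2 fold change 3.65 ± 0.77 SE, edgeR adjusted p = 0.00766). With ATRA it had 8 counts in the knockout and 0 in the control. KIT, the receptor that primordial germ cells need to migrate and survive, was 4.10-fold lower untreated (edgeR adjusted p = 0.0100), and TFAP2B 5.12-fold lower with overlapping libraries (edgeR adjusted p = 0.0432). NANOS3 and SOX17 were thus called higher, KIT and TFAP2B lower, and PRDM1 and TFAP2C not called. SOX17 passed the filter on low counts only through the untreated knockout, the group where it was high, and did not exceed 0.116 CPM elsewhere.

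Among 15 genes that silence or demethylate germline promoters 4 (E2F6, PCGF6, TET1 and RNF2) were lower and none higher in untreated cells, beside 21.9% of all genes lower. This split depended on the scaling. With RLE scaling 3 were lower (RNF2 was not called) and 3 higher (MAX, L3MBTL2 and EHMT1), and DESeq2 called the same 3 higher and 4 lower. E2F6 was at 15.2, 14.7 and 14.7 CPM in the untreated knockout, against 38.8, 28.0 and 31.8 CPM in the untreated control (log2 fold change -1.14 ± 0.21 SE, edgeR adjusted p = 0.00401). PCGF6, of the same Polycomb complex, was 3.28-fold lower (edgeR adjusted p = 0.00569). TET1, a dioxygenase that starts DNA demethylation, was lower without ATRA (2.61-fold, edgeR adjusted p = 0.0329) and with ATRA (4.61-fold, edgeR adjusted p = 0.0183). With ATRA edgeR called neither E2F6 (adjusted p = 0.0898) nor PCGF6 (0.104), at log2 changes of -0.60 ± 0.21 and -0.93 ± 0.34 (SE).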

How the data were processed

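RNA was extracted from NT2/D1 cells and sequenced from stranded mRNA libraries, per the labels' protocols. The deposited table gives raw counts per gene and library and 1 length per gene, from which RPKM was computed here. Per the submitters' processing notes the authors used bcl2fastq, TopHat2, Subread, featureCounts and DESeq2 with hg19 and GRCh37; the sources used here give no version, annotation release, strand setting or handling of multiply mapped reads. Genes that overlap or have near-identical copies may therefore share counts.

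Groups came from the titles, and all 12 columns were used. edgeR 4.0.16 (R 4.3.3) filtered genes with filterByExpr (minimum count 10), scaled libraries by TMM and ran its quasi-likelihood F-test on the 12 libraries, with a coefficient for each group. Its 5 contrasts were tested 2-sided, with Benjamini-Hochberg adjustment across 19130 genes; "called" means an adjusted p under 0.05. The common biological coefficient of variation was 0.367. Counting intervals are 95% Clopper-Pearson intervals on summed counts and cover counting error only. Steps were tested on simulated data.

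Genes named are the 10 members, PRMT6, up to 3 called genes per sublist of the wider list by smallest adjusted p, tested cohesin genes, and for each tested member the 2 genes most correlated with it; DDX4, DAZL, overlapping genes and markers beyond the sums were added after their values were seen. Members, lists and the summing of near-identical libraries were chosen with earlier results of these data known. GC content is the median over GENCODE v44 transcripts matched by symbol for 85.6% of genes tested and all 10 members. Other settings were RLE scaling, DESeq2 1.42.0, no filter, the compared groups alone, the replicate number as a block, summed near-identical libraries, each library left out, and, added after seeing the data, removal of each library's GC trend (lowess).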

Additional observations from a re-analysis of the deposited data

Results flagged for a closer look

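SYCP3 was the 1 member whose libraries separated in opposite directions in CPM: all 3 knockout libraries were below all 3 controls untreated, and all 3 were above the controls with ATRA. With ATRA, knockout 3 and controls 2 and 3 each had 1 count, so that separation came from library scaling only (0.0275 against 0.0260 and 0.0259 CPM). Untreated, the closest libraries were at 0.0703 CPM (knockout) and 0.0721 CPM (control). The share of all genes that separated in opposite directions was not computed. The difference between the conditions was not tested among the filtered genes. Without the filter it was 2.82 on the log2 scale (edgeR adjusted p = 0.726), and it rests on 0 to 7 counts per library.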

How the results depend on the processing

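The 4 members called in untreated cells remained called under every setting (all 4 shared), with 5 called by DESeq2, without the filter, with the replicate block and with the GC trend removed, where PRDM1 was added. The share of all genes called there was 40.9% by DESeq2, 18.2% without the filter and 30.2% with the replicate block. Leaving out single libraries gave 4 to 5 members and 11 to 29 wider genes, where 15.5% to 42.8% of all genes were called. Against 21 in the full analysis, the wider count was 4 with near-identical libraries summed and 10 with the GC trend removed, while the share of all genes called was 5.42% and 16.9%, against 34.9%. With ATRA the member count of 2 became 1 with the compared groups alone, the replicate block (TEX15 not called) or summed libraries. All genes were called at 4.31%, 3.98% and 0.359% there, against 7.51% in the full analysis. The member count ran from 1 to 3 as single libraries were left out, beside 1.11% to 10.9% of all genes. The wider count of 3 became 11 by DESeq2, 9 without the filter and 0 with summed libraries (0 to 7 with single libraries left out). DESeq2 called 15.5% of all genes in that comparison and the unfiltered fit 6.32%. For ATRA in control cells the member count of 0 became 2 by DESeq2 and 2 without the filter, and the wider count 6 and 7. DESeq2 called 8.47% and the unfiltered fit 3.84% of all genes there, against 0.115% in the full analysis. Without single libraries the member and wider counts reached 2 (0 to 2) and 10 (0 to 10), beside 0 to 12.4% of all genes. For ATRA in the knockout the wider count of 0 became 2 by DESeq2, 3 without the filter and 6 with the compared groups alone (0 to 2 without single libraries). The shares of all genes called under those 3 settings were 2.93%, 0.742% and 7.60%. The cause of these moves was not tested.

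Sign changes occurred only among values that were not called. TFAP2C had -0.069 (knockout against control with ATRA, GC trend removed); MEIOB 0.025 (ATRA in the knockout, replicate block); TEX15 -0.42 and -0.016 (ATRA in the knockout and interaction, GC trend removed); TDRD12 -0.033 (interaction, GC trend removed); STAG3 -0.005, -0.007 and -0.035 (interaction, RLE, DESeq2 and summed libraries). With single libraries left out, TFAP2C ran from -0.80 to 0.026 and -0.74 to 0.35 (knockout against control, untreated and with ATRA), from -0.46 to 0.11 and -0.65 to 0.69 (ATRA in control and knockout) and from -0.50 to 0.84 (interaction). TEX15 ran from -0.15 to 0.57 and MEIOB from -1.43 to 0.39 (ATRA in the knockout), and STAG3 from -0.25 to 0.42 (interaction).

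Of 18 pairs of libraries that share a replicate number across groups, 4 had deviations from their group means correlated above 0.1 (range -0.59 to 0.51), so not every pair did and the numbers were not taken to pair the samples. Of 6 libraries in each comparison, those that correlated best with their own number numbered 0 between genotypes in either condition, 3 for ATRA in control cells and 2 for ATRA in the knockout. At the depth of these libraries SYCP3 had at most 7 counts in any library, and MEIOB at most 8 in any knockout library.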

Other observations

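The genes most like each tested member over the 12 libraries (Pearson correlation of log2(CPM + 0.5), among genes averaging at least 1 CPM, with the genotype difference and library quality shared by all points) are given as a description. For TEX15 they were PPP2R3A and AGTPBP1 (0.987 and 0.984), for MEIOB TBC1D31 and PADI3 (0.987 and 0.979), and for TDRD12 ANAPC1 and CDKN2AIP (0.982 and 0.980). For NANOS3 they were CPSF4 and TRIP6 (0.945 and 0.938), and for PRDM1 MAP1LC3C and B4GALT1 (0.984 and 0.973). STAG3 was most like AFG3L2 and CHD1L (0.964 and 0.942), PIWIL2 most like TRIM26 and PHF8 (0.931 and 0.930), and TFAP2C most like PTMA and HPDL (0.908 and 0.902).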
